A study of Mus musculus with 2 samples.

Results

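Peptide hormones are made in the gut by scattered enteroendocrine cells, and 9 of their genes are described here: Sst, Nts, Ppy, Pyy, Gcg, Insl5, Cck, Tac1 and Sct. They were chosen by symbol, and all 9 were found among the 31053 genes of both count matrices. The data are 2 single-cell RNA libraries of mouse colon epithelium, 1 per group. For the GFP library, c-Kit-creERT2;Rosa26-mTG mice were given 1 intraperitoneal dose of tamoxifen (1 mg per 20 g), and their GFP-positive cells were sorted. In such mice the recombinase is made where Kit is active, tamoxifen switches it on, and the cells recombined then and their progeny carry GFP. The whole epithelium library came from untreated c-Kit-creERT2 mice, so both groups carry the recombinase allele, and the groups differ in reporter allele, tamoxifen and sort together. The age and number of animals and the time from dose to collection were not given in the sources used here.

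RNA was counted by unique molecular identifiers (UMIs), each standing for 1 captured molecule. The barcodes of the GFP library numbered 13575 with 150348319 UMIs, and those of the whole epithelium library 13967 with 164185392 UMIs. Barcodes were kept at 500 or more genes, 1000 or more UMIs and at most 25% mitochondrial UMIs, which left 5767 barcodes in GFP and 7762 in whole epithelium, with medians of 15821 and 14160 UMIs. Epcam, an epithelial surface protein gene, had a UMI in 99.2% of kept GFP barcodes and 97.6% of kept whole epithelium barcodes. Xist stood at 749.8 CPM (UMIs of a gene per 1000000 UMIs counted) in GFP and 0.0652 CPM in whole epithelium, so the animals also differed in sex, and a gene's ratio cannot be told apart from sex, sort, dose or library. The matrix and barcode files are crossed in the records, and each matrix was assigned by its number of columns; the reverse assignment would turn every ratio. There is no replicate and hence no test, and all intervals are exact 95% intervals for counting error alone. The limit given for a count of 0 is 3 counts of the total, which is lower than the exact interval's upper end.

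Enteroendocrine cells sense the contents of the gut lumen and release peptides from granules at their base. L cells, frequent in the colon, make Gcg products such as GLP-1 together with peptide YY and, in the distal gut, insulin-like peptide 5. Enterochromaffin cells make serotonin with the enzyme encoded by Tph1, and D cells make somatostatin, which inhibits the release of many other hormones. Many of the hormone genes can be transcribed in the same cell.

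The 9 genes lie on 8 chromosomes of the mouse genome (GRCm38, equal to the mm10 build of the files, GENCODE annotation). Ppy (ENSMUSG00000017316, chromosome 11, 102099930 to 102101319) and Pyy (ENSMUSG00000017311, chromosome 11, 102106676 to 102107832) are neighbours on the minus strand with 5356 bases between them. Sst (ENSMUSG00000004366) is on chromosome 16 from 23889573 to 23890958 and Gcg (ENSMUSG00000000394) on chromosome 2 from 62474530 to 62483650. The others are Nts (chromosome 10), Insl5 (chromosome 4), Cck (chromosome 9), Tac1 (chromosome 6) and Sct (chromosome 7). All are annotated as protein coding. The 250 bases before the start of 4 of them are shown, because Sst was rarely high together with other hormones, Ppy and Pyy are neighbours with opposite differences between the libraries, and Gcg shared its cells with Pyy. The sequences are RefSeq's (GRCm38.p6, minus strand for each), from chr16:23890845-23891094, chr11:102101320-102101569, chr11:102107833-102108082 and chr2:62483654-62483903 in this order, written 5′ to 3′. Capitals mark TGACGTCA, the cyclic AMP response element, and TATAAA on either strand.
Sst: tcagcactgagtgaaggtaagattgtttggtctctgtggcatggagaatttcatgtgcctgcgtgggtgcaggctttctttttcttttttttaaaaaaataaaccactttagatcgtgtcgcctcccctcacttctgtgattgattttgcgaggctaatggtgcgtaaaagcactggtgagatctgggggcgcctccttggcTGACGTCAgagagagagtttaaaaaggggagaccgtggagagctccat
Ppy: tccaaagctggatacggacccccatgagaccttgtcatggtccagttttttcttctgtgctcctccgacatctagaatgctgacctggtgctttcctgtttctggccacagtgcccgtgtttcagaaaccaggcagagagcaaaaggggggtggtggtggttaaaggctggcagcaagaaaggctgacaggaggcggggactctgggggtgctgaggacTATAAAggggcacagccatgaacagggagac
Pyy: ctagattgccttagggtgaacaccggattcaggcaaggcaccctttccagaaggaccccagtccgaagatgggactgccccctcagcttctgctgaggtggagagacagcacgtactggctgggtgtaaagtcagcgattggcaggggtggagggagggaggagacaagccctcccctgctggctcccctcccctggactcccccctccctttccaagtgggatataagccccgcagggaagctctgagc
Gcg: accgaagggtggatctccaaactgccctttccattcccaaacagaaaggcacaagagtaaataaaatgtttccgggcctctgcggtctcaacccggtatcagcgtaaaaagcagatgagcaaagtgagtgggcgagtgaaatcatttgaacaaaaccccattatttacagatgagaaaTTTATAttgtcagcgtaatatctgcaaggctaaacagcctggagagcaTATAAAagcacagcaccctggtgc
TGACGTCA, which reads the same on both strands, began 48 bases before RefSeq's start of Sst, which lies inside the GENCODE gene range given above, and was in none of the other 8 genes' windows, while 1.55% of 32851 mouse promoter windows of that length hold it. TATAAA was found at -31 in Ppy, at -24 in Gcg, at -28 in Sct and at -49 in 1 of 2 Insl5 entries on the gene's own strand, against 12.4% of all windows on either strand. Pyy had no TATAAA in this window. A match describes these letters and does not show a bound site.

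Over all kept barcodes, 2 of the 9 genes were at least 2-fold higher in GFP, Ppy and Tac1, and 5 were at least 2-fold lower, Sst, Nts, Cck, Gcg and Insl5. Pyy and Sct were also lower in GFP but within 2-fold. Among the 13843 genes with at least 50 UMIs over both libraries, 3.09% were 2-fold higher in GFP and 7.76% 2-fold lower, with a median log2 ratio of -0.02. The median of the 9 was -1.14. The differences between GFP and whole epithelium below are log2 ratios of CPM over kept barcodes, and UMIs are not divided by gene length.

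Sst, the somatostatin gene, had the largest ratio over all kept barcodes, although without the 10 top barcodes of each library for each gene it was -3.79 and Ppy, at 5.41, was further from 0. In whole epithelium those 10 barcodes held 98.5% of the Sst and 88.9% of the 190 Ppy UMIs. Both ratios without them thus rest on few UMIs, and the part of background in them was not tested. Sst had 18 UMIs (0.166 CPM) in GFP and 2334 UMIs (16.9 CPM) in whole epithelium, a log2 ratio of -6.67 (interval -7.43 to -6.01). Nts, which encodes neurotensin, a peptide that acts on gut movement and fat uptake, had 261 UMIs (2.40 CPM) in GFP and 3422 (24.8 CPM) in whole epithelium (-3.37, -3.55 to -3.18). Cck, the cholecystokinin gene, best known from the small intestine, had 397 UMIs in GFP and 1520 in whole epithelium (-1.59, -1.75 to -1.43). For Sst and Nts a handful of barcodes carried most of the whole epithelium UMIs, as described below.

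Gcg, the proglucagon gene, stood at 33.7 CPM in GFP and 82.5 CPM in whole epithelium (-1.29, -1.34 to -1.24). Insl5, whose peptide acts on the receptor Rxfp4, stood at 35.9 CPM in GFP and 79.3 CPM in whole epithelium (-1.14, -1.20 to -1.09). Pyy, whose peptide lowers appetite and gut movement, was at 197.8 CPM in GFP and 298.7 CPM in whole epithelium (-0.59, -0.62 to -0.57). The 3 genes thus lay on the same side, with Pyy closest to equal levels. Sct, the secretin gene, was at 34.3 CPM in GFP and 65.2 CPM in whole epithelium (-0.93, -0.98 to -0.87).

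Ppy and Tac1 went the other way. Ppy, the pancreatic polypeptide gene, had 1652 UMIs (15.2 CPM) in GFP and 190 UMIs (1.38 CPM) in whole epithelium, a ratio of 3.47 (3.25 to 3.69). Tac1, whose precursor gives substance P and neurokinin A, had 3811 UMIs (35.1 CPM) in GFP and 1030 UMIs (7.47 CPM) in whole epithelium, a ratio of 2.23 (2.13 to 2.33). Ppy therefore differed in direction from Pyy, its neighbour on the chromosome.

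**Figure D1:**
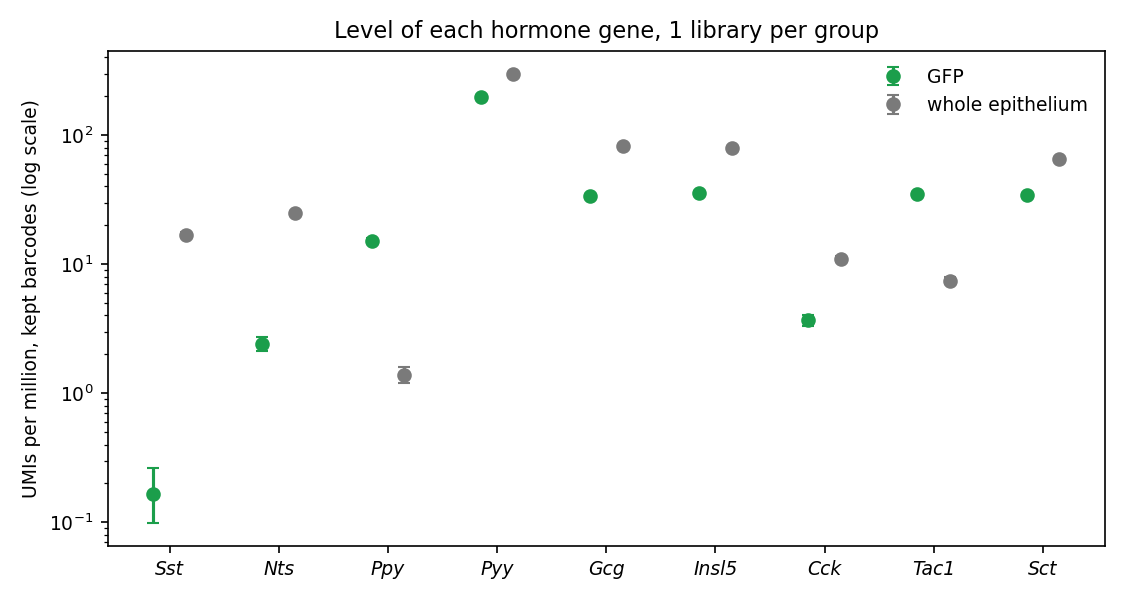
Level of the 9 hormone genes in CPM over kept barcodes (log axis), with the GFP library in green left of the whole epithelium library in grey, and bars for exact 95% Poisson intervals. Ppy and Tac1 are the genes whose GFP point lies above, and the widest gap is that of Sst, 0.166 CPM in GFP and 16.9 CPM in whole epithelium.

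Most hormone UMIs came from very few barcodes. A barcode was called high for a gene at 20 or more UMIs of it, which held for at least 1 of the 9 genes in 57 GFP barcodes and 191 whole epithelium barcodes. Of the Pyy UMIs, 73.2% lay in the top 10 barcodes of GFP and 56.1% in those of whole epithelium. Barcodes that together held 50% of the Pyy UMIs numbered 4 in GFP and 9 in whole epithelium. Pyy reached 4196, 2559 and 2441 UMIs in its top 3 GFP barcodes and 5225, 3346 and 3131 UMIs in its top 3 whole epithelium barcodes. In the top barcode of each library Pyy alone made up 25.7% of all UMIs in GFP and 24.9% in whole epithelium.

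Gcg put 74.4% of its UMIs into its top 10 GFP barcodes and 57.0% into its top 10 whole epithelium barcodes, with highest counts of 965 and 1032 UMIs. The matching shares for Insl5 were 78.8% in GFP and 72.5% in whole epithelium, and for Cck 68.0% in GFP and 72.2% in whole epithelium. Nts in whole epithelium rested on 1 barcode, which held 1838 of its UMIs (53.7%), while the highest GFP barcode had 35. Without the 10 top barcodes of each library the Nts ratio was -1.46, and the cause of the difference was not tested. Sct was spread more widely, with 38.1% in the top 10 barcodes of GFP and 39.8% in those of whole epithelium.

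High barcodes numbered 29 in GFP and 131 in whole epithelium for Pyy, 14 in GFP and 46 in whole epithelium for Gcg, 13 in GFP and 43 in whole epithelium for Insl5, and 20 in GFP and 69 in whole epithelium for Sct. They numbered 4 in GFP and 14 in whole epithelium for Cck, and 2 in GFP and 14 in whole epithelium for Nts. As shares of kept barcodes, Pyy-high barcodes made up 0.503% (0.337 to 0.721) of GFP and 1.69% (1.41 to 2.00) of whole epithelium. Many of the whole epithelium ones share a profile, as described below, and with each such group counted as 1 Pyy-high barcodes numbered 28 in GFP and 77 in whole epithelium. Ppy had 6 in GFP and 2 in whole epithelium, and Tac1 had 14 in GFP and 1 in whole epithelium. Sst had 7 high barcodes in whole epithelium and 0 of 5767 in GFP, which allows a share of up to 0.0520% there. These counts are not corrected for depth. With barcodes thinned to 5000 UMIs, which leaves out shallower ones, 24 barcodes of GFP and 69 of whole epithelium were high for any of the genes.

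**Figure D2:**
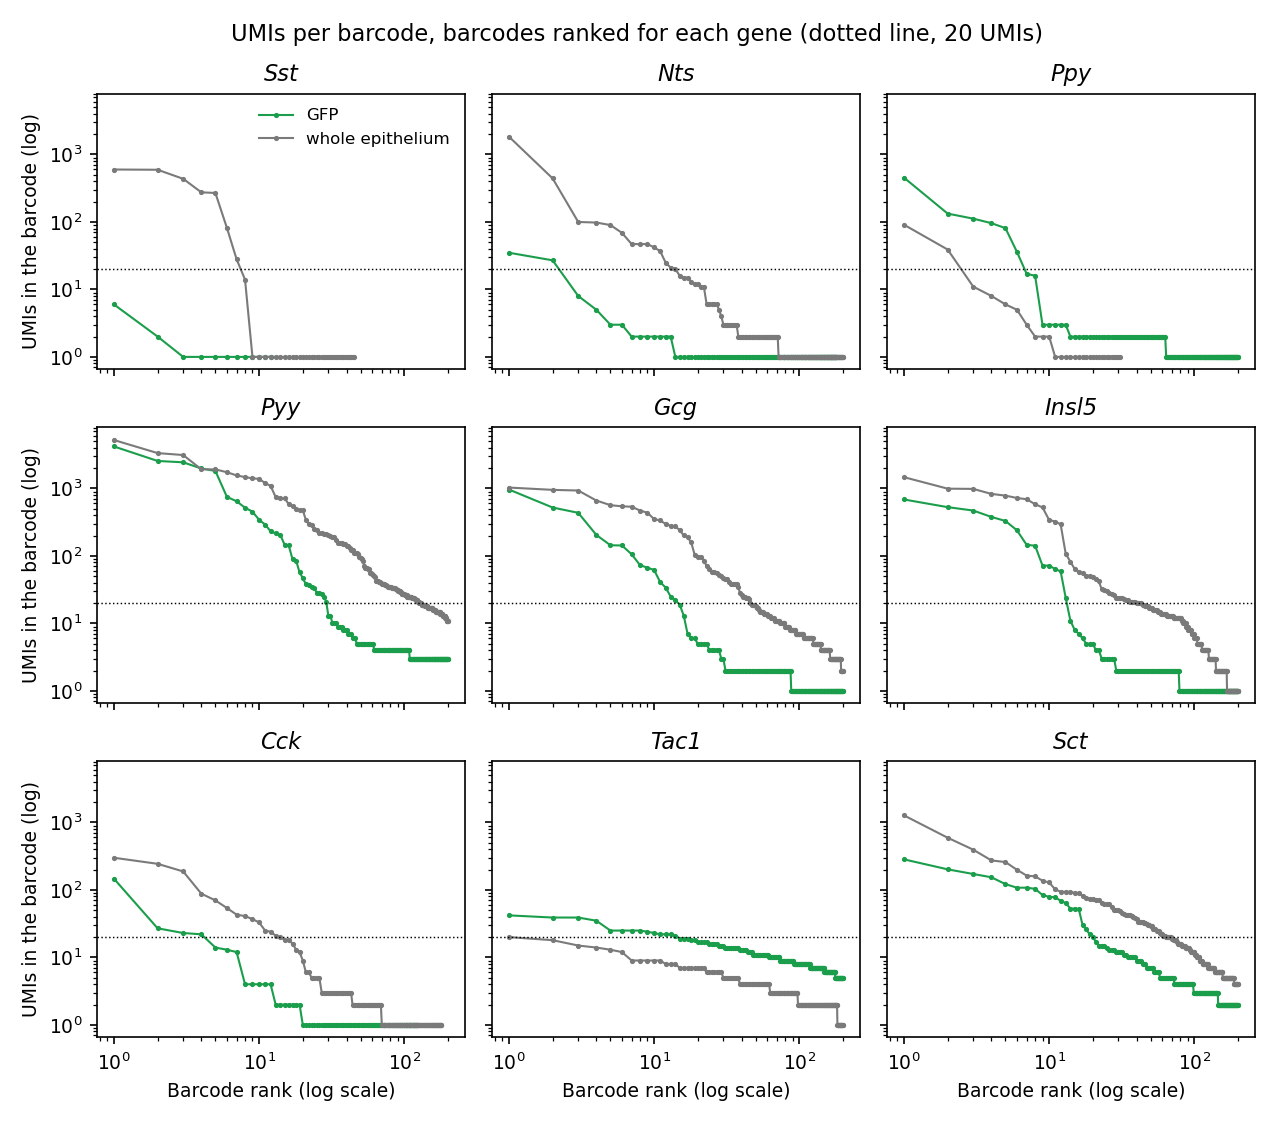
UMIs of each gene in its 200 highest kept barcodes at most (both axes log), GFP in green and whole epithelium in grey, with the dotted line at 20 UMIs. Sst drops from 28 to 14 and then 1 UMI after its 7 high whole epithelium barcodes, while the Tac1 curve of GFP declines slowly from 42 UMIs.

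Which barcodes these were was read from 18 enteroendocrine marker genes that include no hormone gene. Endocrine by markers means at least 2 UMIs of each of 3 or more of them, and this held for 77 GFP barcodes and 156 whole epithelium barcodes. A further 39 barcodes in GFP and 66 in whole epithelium had 2 such markers, and 19 in GFP and 37 in whole epithelium had just 3, so the limit runs through a graded range. Clustering without the hormone genes gave 1 enteroendocrine-like cluster, led by Chgb and Chga, granule protein genes, with 108 GFP and 151 whole epithelium barcodes. The 2 definitions shared 64 barcodes in GFP and 132 in whole epithelium. Median depth in the cluster was 3622 UMIs in GFP and 6532 in whole epithelium, both well under the library medians.

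L-cell hormones were mostly high together. Every one of the 14 Gcg-high barcodes of GFP was also Pyy-high, as were 45 of 46 in whole epithelium. Of the Insl5-high barcodes, 13 of 13 in GFP and 37 of 43 in whole epithelium were Pyy-high. Gcg and Insl5 were high together in 12 GFP barcodes and 23 whole epithelium barcodes. Cck-high barcodes were all Pyy-high, 4 of 4 in GFP and 14 of 14 in whole epithelium, and 4 of 4 and 13 of 14 were Gcg-high.

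The amounts within these barcodes varied widely. The top GFP barcode for Pyy had 4196 Pyy, 965 Gcg and 529 Insl5 UMIs, and the next had 2559 Pyy, 205 Gcg and 687 Insl5 UMIs. In whole epithelium the top Gcg barcode had 1032 Gcg, 747 Pyy, 108 Insl5 and 300 Cck UMIs, while the top Pyy barcode had 5225 Pyy, 279 Gcg, 1471 Insl5 and 0 Cck UMIs. Gcg could thus exceed Pyy or be far under it in barcodes high for both. Converse shares were lower, since 14 of 29 Pyy-high barcodes in GFP and 45 of 131 in whole epithelium were Gcg-high (14 of 28 in GFP and 31 of 77 in whole epithelium with like profiles counted as 1).

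Nts-high barcodes were Pyy-high in 2 of 2 cases in GFP and 14 of 14 in whole epithelium, and Sct-high in 2 of 2 and 11 of 14. The highest of whole epithelium had 1838 Nts, 3131 Pyy, 1274 Sct and 2 Gcg UMIs, and the next 442 Nts, 489 Pyy, 594 Sct and 0 Gcg UMIs. The third had 100 Nts, 544 Gcg, 157 Pyy and 0 Sct UMIs, so Nts was found beside Sct with little Gcg and beside Gcg with no Sct. The GFP pair had 35 and 27 Nts, 57 and 89 Pyy, and 108 and 69 Sct UMIs, with 0 Gcg UMIs in each.

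Ppy-high barcodes were all Pyy-high, 6 of 6 in GFP and 2 of 2 in whole epithelium. In GFP their Ppy counts were 454, 133, 112, 96, 81 and 36 UMIs beside 2441, 146, 646, 232, 519 and 1820 Pyy UMIs. In whole epithelium they were 91 and 39 Ppy UMIs beside 1475 and 489 Pyy UMIs. Ppy was high in 6 of 29 Pyy-high barcodes in GFP and 2 of 131 in whole epithelium (6 of 28 in GFP and 2 of 77 in whole epithelium with like profiles counted as 1). Of the GFP barcodes, 5 were endocrine by markers and 5 Gcg-high.

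Sct-high barcodes came from more than 1 kind of cell. In GFP 12 of 20 had at least 2 UMIs of Tph1, the serotonin enzyme gene, 5 were Pyy-high and 3 neither. In whole epithelium 32 of 69 had the Tph1 UMIs, 22 were Pyy-high, 1 was both, and 16 neither. With like profiles counted as 1, 4 of 19 in GFP and 15 of 60 in whole epithelium were Pyy-high. The top GFP barcode had 284 Sct, 170 Tph1 and 226 Chga UMIs with 1 Pyy UMI. The fourth of whole epithelium had 274 Sct UMIs, in a goblet-like cluster, with 0 UMIs of the 18 endocrine markers and 0 of Pyy. In goblet-like clusters, named from mucus genes such as Muc2, Sct stood at 25.3 CPM in GFP and 65.1 CPM in whole epithelium. T and NK-like barcodes, which should lack it, were at 54.8 CPM (23.6 to 107.9) in GFP and 15.5 CPM (9.31 to 24.1) in whole epithelium. Depths were unlike, with GFP medians of 1882 UMIs in T and NK-like and 24945 UMIs in goblet-like barcodes. Per GFP barcode Sct averaged 0.133 UMIs in T and NK-like and 0.731 UMIs in goblet-like ones. Deep GFP classes of absorptive (colonocyte-like) and of stem or dividing (stem/TA-like) cells stood at 15.0 and 7.18 CPM. The part of background in the goblet-like level was not tested. Goblet-like Sct-high barcodes numbered 2 of 986 in GFP and 13 of 1062 in whole epithelium, and thinned to 5000 UMIs 11.3% in GFP and 11.7% in whole epithelium had an Sct UMI.

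**Figure D3:**
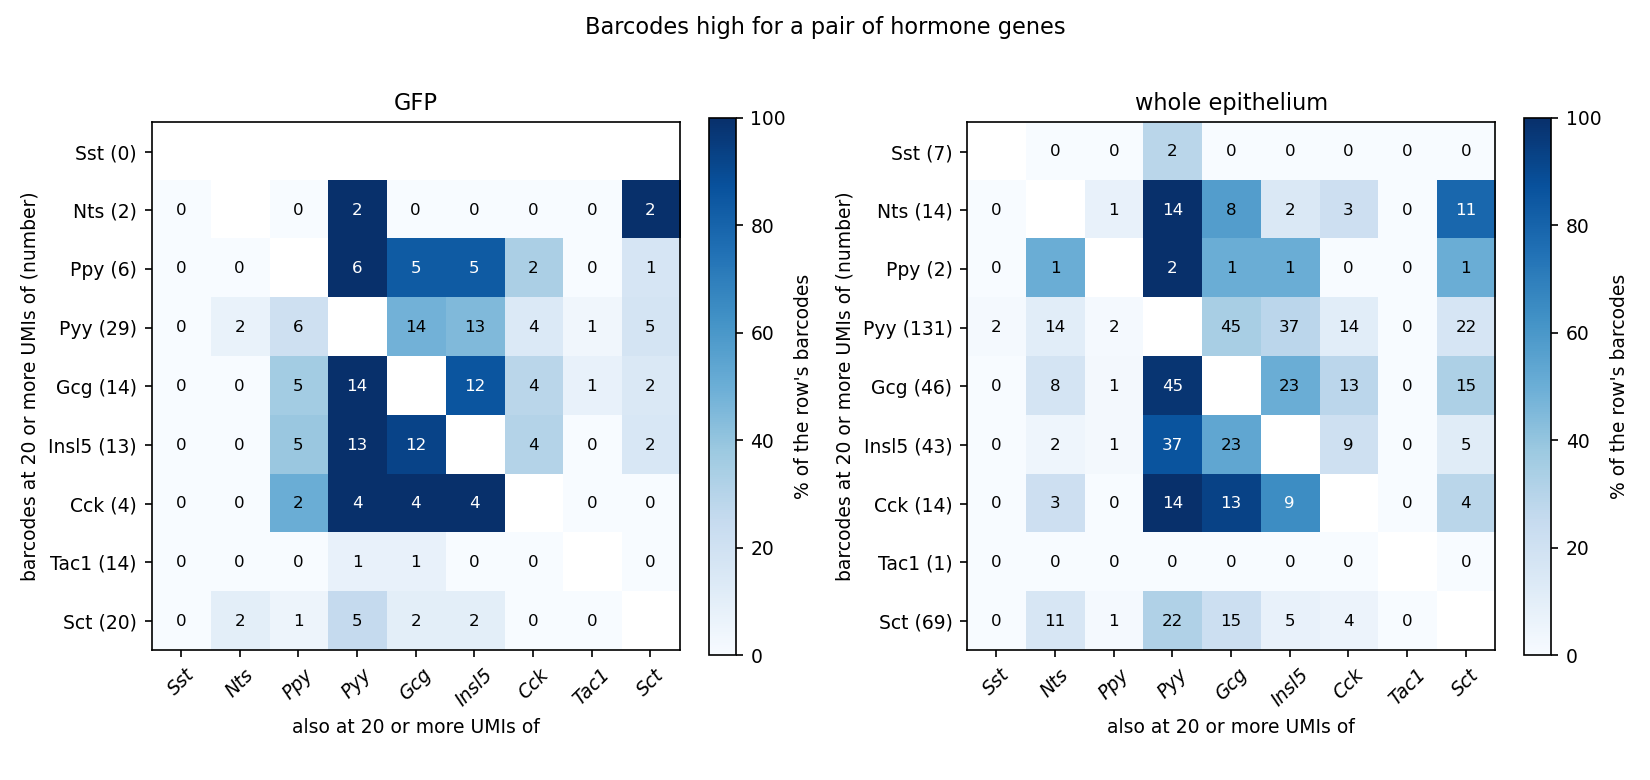
Barcodes high (20 or more UMIs) for the gene of the row, with their number in parentheses, that were also high for the gene of the column; GFP is on the left, whole epithelium on the right, numbers are barcodes and colour is the share of the row. The Pyy column is dark for Gcg, Insl5, Cck, Nts and Ppy in both libraries, and the Sst row of whole epithelium holds 2 of 7 for Pyy and 0 elsewhere.

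Sst was rarely high together with the other hormone genes. Its 7 high barcodes of whole epithelium had 599, 594, 436, 275, 269, 82 and 28 UMIs, and none was high for Gcg, Insl5, Cck, Nts, Tac1, Ppy or Sct. Pyy reached 20 UMIs in 2 of them, with 25 and 65 UMIs. All 7 had UMIs of Hhex, a transcription factor gene of somatostatin cells in the mouse pancreas, from 1 to 10 of them. The eighth barcode had 14 Sst UMIs and 0 of Hhex, and the remaining 37 with any Sst had 1 UMI each. In GFP the highest counts were 6 and 2 UMIs, and 10 more barcodes had 1.

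The position of Sst outside endocrine cells depended on how those were defined. Outside enteroendocrine-like clusters lay 58.1% (56.1 to 60.1) of the whole epithelium Sst UMIs. Outside endocrine by markers lay 6.90% (5.90 to 8.003), and outside both 2.19% (1.63 to 2.86), which is 51 UMIs in 38 barcodes with at most 14 in any. In GFP 17 of 18 Sst UMIs lay outside both.

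Nearly all of the UMIs outside the clusters came from 3 barcodes, with 594, 436 and 275 Sst UMIs, together 1305 of 1356. Clustering put them in clusters that resembled stem or dividing crypt cells (stem/TA-like, 2 of them) and absorptive cells (colonocyte-like, 1 of them). Their total depths of 147481, 63696 and 82005 UMIs were several times the library median of 14160. They had at least 2 UMIs of 15, 7 and 9 of the endocrine markers, with 82, 35 and 40 marker UMIs, and 6, 4 and 4 Hhex UMIs. The top barcode inside the enteroendocrine-like cluster, by comparison, had 599 Sst UMIs of 5902, 32 marker UMIs and 10 of Hhex. The other Sst-high barcodes of that cluster had 269, 82 and 28 Sst UMIs of 4412, 2546 and 3062. They had at least 2 UMIs of 7, 2 and 1 of the endocrine markers. These counts are not corrected for depth, which was far larger in the 3 barcodes outside the cluster. No doublet caller was run, and the part of barcodes with more than 1 cell was not tested.

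**Figure D4:**
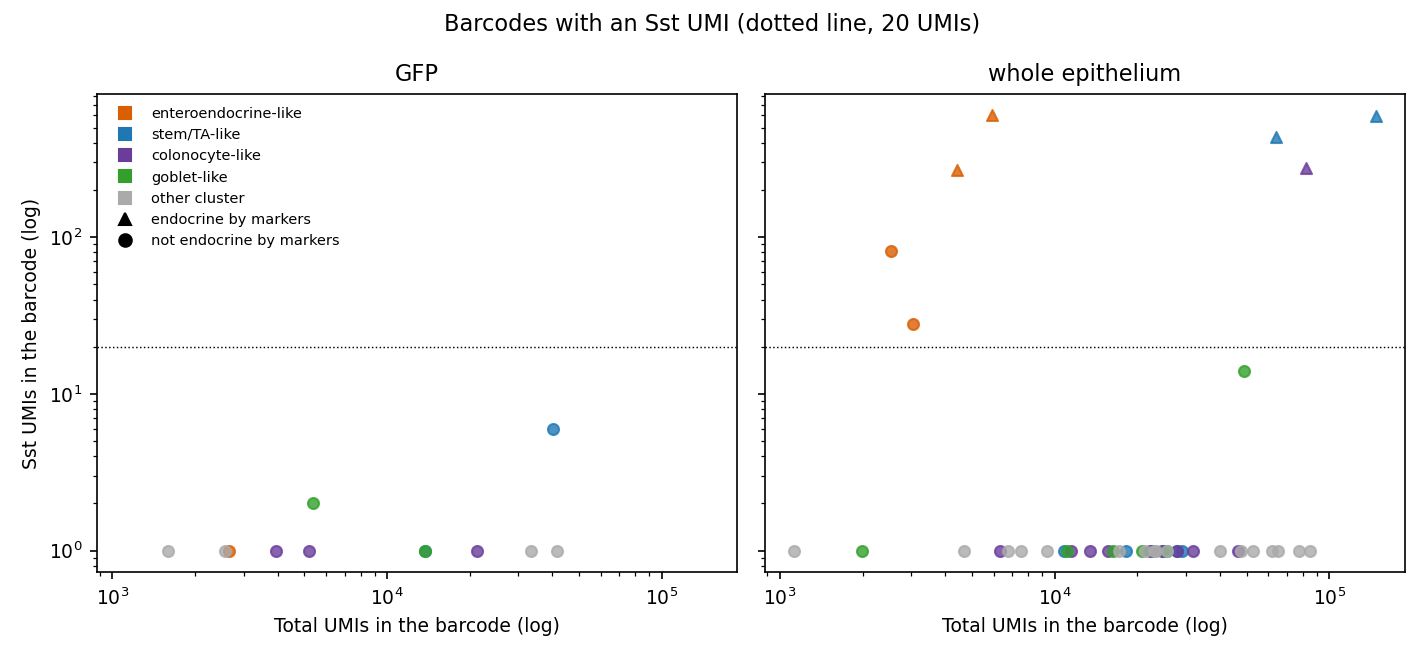
Sst UMIs against total UMIs (both axes log) of each kept barcode with an Sst UMI, GFP on the left and whole epithelium on the right; colour gives the cluster class and triangles are endocrine by markers. Points above the dotted line at 20 UMIs lie either at 2546 to 5902 total UMIs in the enteroendocrine-like cluster or, for 3 of them, at 63696 to 147481 total UMIs in other clusters.

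Tac1 had a different distribution from the other 8 genes in the GFP library. Its top 10 barcodes held 7.92% of its UMIs in GFP and 12.4% in whole epithelium, and 175 barcodes in GFP and 102 in whole epithelium were needed for 50%. Outside endocrine by markers lay 94.9% of Tac1 UMIs in GFP and 75.5% in whole epithelium. In GFP that share was higher still for Nts (99.6%) and Sst (100%), which had few UMIs there, so it was not particular to Tac1. Of the 14 high GFP barcodes 12 were in colonocyte-like cluster c12, with 0 or 1 endocrine marker UMIs in the 4 highest of them, at 42, 39, 39 and 35 Tac1 UMIs. That cluster averaged 4.10 Tac1 UMIs per barcode over 421 GFP barcodes, and 70.1% (65.4 to 74.4) had a UMI.

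Clusters were mostly of 1 library, so c12 held only 3 whole epithelium barcodes, 1 of them with 20 Tac1 UMIs. Colonocyte-like c13, of 415 whole epithelium barcodes and none from GFP, averaged 0.386 Tac1 UMIs at a like median depth, 16738 UMIs against 16778 for c12. Over all colonocyte-like barcodes Tac1 stood at 59.9 CPM in GFP and 7.86 CPM in whole epithelium. With barcodes thinned to 5000 UMIs, 16.2% of them had a Tac1 UMI in GFP and 3.29% in whole epithelium (27.4% and 6.05% unthinned). In the enteroendocrine-like cluster Tac1 stood at 213.6 CPM in GFP and 176.0 CPM in whole epithelium, a log2 ratio of 0.28 (-0.02 to 0.57). In whole epithelium the 4 barcodes next in Tac1 were enteroendocrine-like, with 33 to 103 Chga and 3 to 38 Tph1 UMIs.

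Low counts of the hormones occurred in every large cluster class. A Pyy UMI was found in 45.5% of colonocyte-like barcodes in GFP (median depth 18539 UMIs) and 15.6% in whole epithelium (13323 UMIs), and in 43.6% and 15.6% of goblet-like ones. Among T and NK-like barcodes, which should lack the hormones, 46.7% of 60 in GFP and 14.9% of 228 in whole epithelium had a Pyy UMI, at medians of 1882 and 4147 UMIs. Depths were unlike, so these shares do not measure background, and the part of background in them was not tested. Ppy had a UMI in 9.45% of colonocyte-like and 15.0% of T and NK-like barcodes in GFP, against 0.250% and 0% in whole epithelium. For the T and NK-like barcodes of whole epithelium that is 0 of 228, which allows a share of up to 1.32%.

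Gcg had a UMI in 9.51% of colonocyte-like barcodes in GFP and 5.65% in whole epithelium. In T and NK-like barcodes its shares were 8.33% and 6.14%. Insl5 had a UMI in 8.99% and 3.65% of colonocyte-like and 5.00% and 3.07% of T and NK-like barcodes. Depths were as unlike as for Pyy, and the part of background in these shares was not tested. For Tac1 in GFP 27.4% of colonocyte-like and 3.33% of T and NK-like barcodes had a UMI, at unequal depth. The other deep classes of GFP had like shares, 29.9% of stem/TA-like and 24.2% of goblet-like barcodes, and c12 held 1725 of the 1882 colonocyte-like Tac1 UMIs. Colonocyte-like c4 and c17 had a Tac1 UMI in 13.5% and 5.45% of their GFP barcodes. In CPM the colonocyte-like level of Tac1 in GFP was 59.9 CPM and the T and NK-like level 13.7 CPM (1.66 to 49.5), while for Pyy the levels were 56.5 and 335.5 CPM.

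Level by class was highest in the enteroendocrine-like cluster for each of the 9 genes in both libraries, although for Sst in GFP this rested on 1 UMI. For Pyy it was 21514 CPM in GFP and 23637 CPM in whole epithelium. For Gcg it was 3719 and 6500 CPM, for Insl5 4075 and 6555 CPM, for Sct 2436 and 3719 CPM, and for Cck 368.5 and 927.7 CPM. Within this cluster 1 gene was at least 2-fold higher in GFP and 3 were 2-fold lower, where 2.03% and 4.68% of the 6051 genes with at least 50 UMIs there passed. The higher gene was Ppy, at 1167 CPM in GFP and 106.2 CPM in whole epithelium (log2 ratio 3.46, 3.21 to 3.72). Sst (1 UMI in GFP and 978 in whole epithelium), Nts (35 and 2770 UMIs) and Cck were lower.

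Pyy (-0.14, -0.16 to -0.11), Gcg (-0.81, -0.87 to -0.74), Insl5 (-0.69, -0.75 to -0.63) and Sct (-0.61, -0.69 to -0.53) were within 2-fold in the cluster. These ratios and calls depended on the clustering: with the hormone genes kept among the variable genes the class lost a cluster led by Insl5, Gcg and Pyy, 0 genes were 2-fold lower in GFP, and the ratios were 2.87 for Pyy, 3.23 for Gcg, 1.38 for Insl5, 1.60 for Cck and 0.24 for Sct. Ppy was higher in GFP there too, at 8.08 (5.58 to 13.4). The share of all genes past 2-fold was not computed for that clustering. Summed markers of goblet cells there were at 9160 CPM in GFP and 2329 CPM in whole epithelium, those of colonocytes at 13472 and 9214 CPM, and the 18 endocrine markers at 25861 and 21072 CPM. All 10 goblet, 12 colonocyte and 18 endocrine markers had UMIs in both. T and NK markers were at 0 for 9 of 10 in GFP and summed to 27.1 CPM in whole epithelium. The part of these in the ratios was not tested. In a sort or a library, fewer endocrine cells and less hormone RNA per cell change the level over all barcodes alike.

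With every barcode counted, most Pyy-high barcodes of whole epithelium lay outside the enteroendocrine-like cluster. Of 131, 42 were in it, 68 in c1, a cluster of 1176 barcodes with a median of about 1920 UMIs that the naming rule left unnamed, and 10 in c22. Both c1 and c22 were led by haemoglobin genes such as Hbb-bs. Next came Insl5, Gcg and Pyy in c1 and Gcg, Pyy and Nts in c22. The enteroendocrine list scored highest in c1, with 12 of its 18 markers at least 2-fold over the median cluster. As a shallow cluster c1 needed 3 of them among its 10 leading genes to be named, and it had 1. In c22 no list reached the limit for a name. By markers 40 of the 131 were endocrine, and 83 were so by neither definition. In GFP 21 of 29 were in the cluster and 19 were endocrine by markers. Many of the whole epithelium barcodes share a profile, as described below. With like profiles counted as 1, 38 of 77 in whole epithelium and 9 of 28 in GFP lay outside endocrine by markers.

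Many of these barcodes had like profiles. Among the 191 high barcodes of whole epithelium, 76 fell into 17 groups whose members differed by little more than sampling noise, over all genes other than the 9. The measure was a chi-square per degree of freedom between 2 barcodes, expected at 1 for samples of 1 profile. Its median was 1.11 and its highest value 1.51 within the groups, against a median of 6.20 between barcodes of different groups. In GFP 1 such pair was found among 57 barcodes. The largest group had 13 barcodes, all in c1. Another had 10 in c22 with 8246 to 32134 total UMIs, 106 to 296 Pyy UMIs each, and Gcg at 25.1% of Pyy.

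Hormone ratios were alike in several groups that were formed without them. In the 13-barcode group Gcg summed to 24.7% and Insl5 to 1.94% of the Pyy UMIs, and in the 10-barcode group to 25.1% and 2.27%. A group of 9 had 217 Pyy, 92 Gcg and 219 Insl5 UMIs, with Insl5 at 100.9% of Pyy, and 3 further groups of 5, 4 and 2 barcodes had 93.5%, 101.9% and 92.3%. With each group counted as 1, Pyy-high barcodes of whole epithelium numbered 77 in place of 131, Gcg-high 32 in place of 46, Insl5-high 30 in place of 43 and Sct-high 60 in place of 69. Nts-high ones numbered 12 in place of 14. The counts for GFP moved by at most 1. Sst kept its 7 and Cck its 14 in whole epithelium. In whole epithelium 4120 pairs of high barcodes had too few genes with enough UMIs to compare, against 14025 compared. These pairs were taken as unlike, so likeness among shallow barcodes may be missed. The cause of the likeness was not tested.

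**Figure D5:**
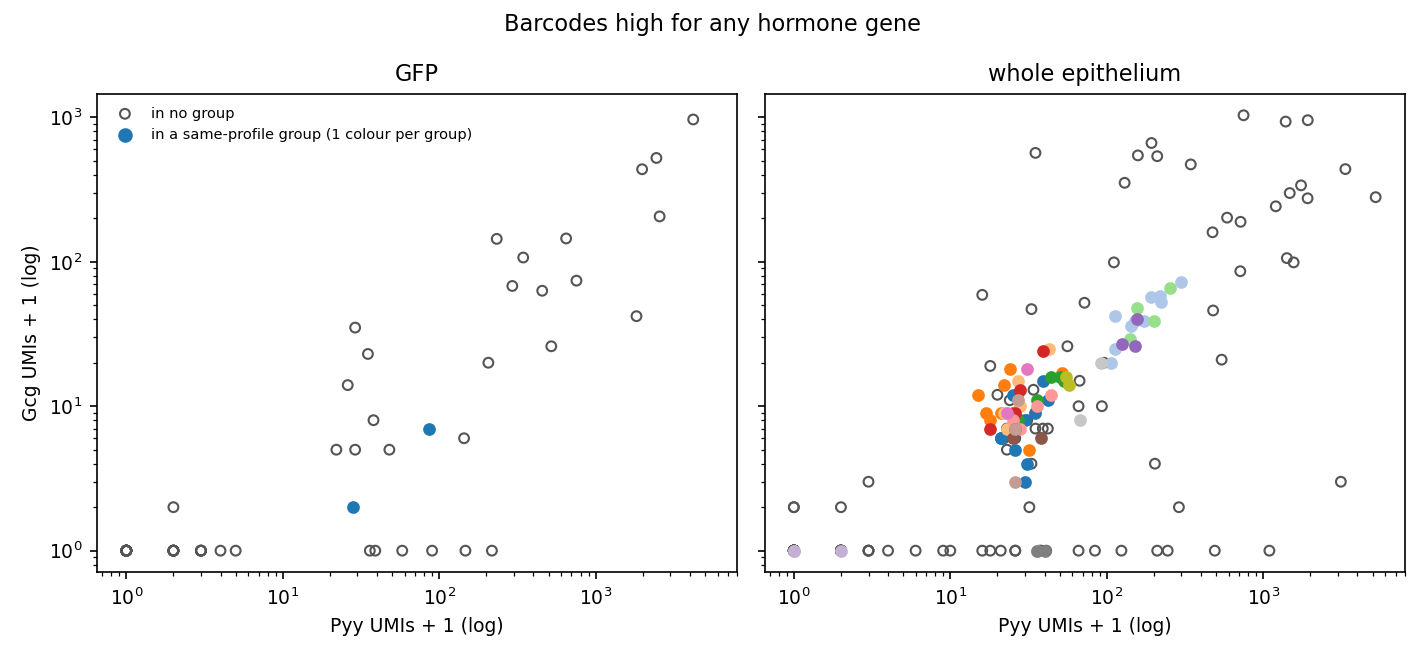
Pyy and Gcg UMIs plus 1 (both axes log) of each barcode high for any hormone gene, GFP on the left and whole epithelium on the right; filled points of 1 colour share a profile over all other genes and open points are in no group. The filled points of whole epithelium lie from 14 to 296 Pyy UMIs, apart from a group of 3 barcodes with at most 1. A pair with 35 Pyy UMIs each and a pair with 35 and 39 had 0 Gcg UMIs. Open points of whole epithelium above 1000 Pyy UMIs spread from 0 to 954 Gcg UMIs.

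Genes whose counts across kept barcodes were most like those of a hormone gene were named for Pyy, Gcg, Insl5 and Sct, which had enough high barcodes. For Pyy they were Gcg, Insl5 and Cck, with mean Pearson r over the 2 libraries of 0.54, 0.52 and 0.41, and r with Gcg was 0.31 over 5767 GFP barcodes and 0.76 over 7762 whole epithelium barcodes. For Gcg they were Insl5 (0.54), Pyy (0.54) and Cck (0.47). Insl5 had Gcg (0.54), Pyy (0.52) and Avpr1b (0.43), a vasopressin receptor gene. Sct had no other hormone among its 3, which were Pcsk1n (0.45), Neurod1 (0.41) and Tph1 (0.40); of these Pcsk1n encodes an inhibitor of the prohormone convertase Pcsk1 and Neurod1 an endocrine transcription factor. These values rest on few barcodes with high counts and share library and depth. Like profiles were not counted as 1 in them, and 76 high barcodes of whole epithelium but 2 of GFP were in such groups. The part of this in the unlike r of the libraries was not tested.

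Over all kept barcodes, the medians of 3 lists of genes that act with the hormones were nearer 0 than that of the 9. Of 15 genes of prohormone processing and granules, 14 had at least 50 UMIs, of which 0 were 2-fold higher in GFP, 5 were lower and 9 within 2-fold. Chgb stood at 138.6 CPM in GFP and 129.3 CPM in whole epithelium, Pam, the enzyme that amidates peptide ends, at 55.8 and 65.3 CPM, and Chga at 41.4 and 54.0 CPM. Of 21 endocrine transcription factor genes 1 was higher, 5 lower and 15 within 2-fold. None of the 7 serotonin genes passed 2-fold, and Tph1 stood at 19.6 CPM in GFP and 15.1 CPM in whole epithelium (log2 ratio 0.38, 0.29 to 0.46). The median log2 ratios of these 3 lists were -0.78, -0.53 and -0.21. These include other cell classes: of the GFP UMIs, 13096 of 15040 for Chgb but 373 of 6054 for Pam lay in the enteroendocrine-like cluster. In that cluster, whose ratios depended on the clustering, the medians were -0.29, -0.36 and 0.04, and that of the 9 was -0.69.

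Other peptides of gut and nerve were scarce, with 9 of 24 genes at 50 UMIs or more, 1 of them 2-fold higher in GFP and 3 lower. Guca2a, the guanylin gene, was the most counted at 2165 CPM in GFP and 2598 CPM in whole epithelium. Guca2b, for uroguanylin, was at 47.5 and 75.3 CPM and Adm, for adrenomedullin, at 14.0 and 14.8 CPM. Of 16 nutrient-sensing genes 12 were measured, with 0 higher, 3 lower and 9 within 2-fold. Slc5a1, a glucose transporter, Ffar2 and Ffar4, fatty acid receptors, were at 82.7, 25.3 and 17.3 CPM in GFP and at 93.7, 15.9 and 11.4 CPM in whole epithelium. Few of their GFP UMIs lay in the enteroendocrine-like cluster, 66 of 8980, 146 of 2746 and 16 of 1880 in this order.

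Receptors of the 9 hormones had few UMIs. Of 21 receptor genes 9 were at 0 in both libraries and 4 had 50 UMIs or more over both, with 2 of them 2-fold lower in GFP. Sstr1, a somatostatin receptor, had 212 UMIs in GFP and 594 in whole epithelium, Npy1r, which binds peptide YY, had 257 and 500, and Sstr2 had 108 and 133. Those at 0 included Glp1r, Ntsr1, Cckbr and Sctr, where 0 UMIs allows up to 0.0276 CPM in GFP and 0.0217 CPM in whole epithelium.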

How the data were processed

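Per the submitters' processing notes the authors used Cell Ranger 2.1.1 and build mm10; the matrix headers give 3.1.0 instead, and which applies is unknown. The deposited values are raw UMI counts per gene and barcode of 10x 3' v2 libraries, with no normalisation, and how barcodes were called is not given in the sources used here. Each matrix was paired with the barcode list of its length. Of the 2 lists, 60 barcode sequences occur in both; 31 of them were kept in GFP and 38 in whole epithelium, 0 of them high for a hormone gene.

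The 9 genes, the lists and the markers were chosen with earlier results of these data known. Named genes were all 9, up to 3 genes per list with most UMIs, and up to 3 most correlated genes (mean r of at least 0.3) for hormones with at least 20 high barcodes. Clusters were made with scanpy 1.11.5 and leidenalg 0.10.2 (2000 variable genes without the 9, 30 components, 15 neighbours, resolution 1.0). A cluster took the marker list with the highest mean log2 fold over the median cluster, of at least 1, with at least 3 markers 2-fold up. Clusters under 1/3 of their library's median depth also needed 3 markers among their 10 leading genes. These naming limits were set after the clusters had been seen, and they kept 25.7% of GFP and 15.4% of whole epithelium barcodes in unnamed shallow clusters. Like profiles were sought by chi-square over genes with at least 3 expected UMIs in both barcodes, at least 100 such genes and average linkage at 1.3, settings chosen after the data had been seen. Doublets were kept. Intervals are exact Poisson for sums, conditional binomial for ratios and Clopper-Pearson for shares; 0 UMIs were set to a floor of 3, and a share of 0 was given a limit of 3 of the total. The computation was tested on simulated counts.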

Additional observations from a re-analysis of the deposited data

Results flagged for a closer look

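Barcodes that failed the filter numbered 7808 in GFP, all above 25% mitochondrial UMIs, and 6205 in whole epithelium, 5333 of them above it. They were used in no comparison. Their hormone RNA was higher in GFP for 6 of the 9 genes, beyond counting error. The share of all genes that did so was not computed, so the 6 are not read as particular to the hormones. Ppy was at 25.2 CPM in these GFP barcodes and 1.75 CPM in those of whole epithelium, and Tac1 at 21.3 and 2.93 CPM. Pyy was at 152.3 CPM in failed GFP barcodes and 73.7 CPM in failed whole epithelium barcodes, while over kept barcodes it was lower in GFP. In these barcodes Gcg was at 24.6 CPM in GFP and 19.8 CPM in whole epithelium, Insl5 at 20.3 CPM in GFP and 13.9 CPM in whole epithelium, and Cck at 3.95 CPM in GFP and 2.67 CPM in whole epithelium. Sst, Nts and Sct were lower in failed GFP barcodes, as in kept ones: Sst was at 0.215 CPM in GFP and 0.610 CPM in whole epithelium, Nts at 6.65 CPM in GFP and 16.7 CPM in whole epithelium, and Sct at 32.9 CPM in GFP and 54.6 CPM in whole epithelium. Pyy-high barcodes among them numbered 10 in GFP and 13 in whole epithelium.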

How the results depend on the processing

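No paired analysis was possible because each group is 1 library. Over all kept barcodes, each of the 9 ratios kept its sign under 7 alternatives of filter, weighting and barcodes left out. Members 2-fold lower in GFP numbered 4 to 7 and members 2-fold higher 2. The share of all genes past 2-fold was computed for the main setting alone. The ratio of Sst ran from -7.40 to -3.79, of Nts from -4.22 to -1.46 and of Ppy from 3.07 to 5.41, the smaller sizes for Sst and Nts without the 10 top barcodes. The 5.41 of Ppy, also without them, rests on few whole epithelium UMIs. Barcodes high for any hormone gene numbered 137 in GFP and 298 in whole epithelium at 10 UMIs, 31 and 91 at 50 UMIs, and 24 and 69 thinned to 5000 UMIs. They numbered 33 in GFP at 10% mitochondrial UMIs, and in whole epithelium 105 at 5000 or more UMIs and 123 with like profiles counted as 1 over 50 genes. Gcg-high barcodes of whole epithelium were 100% Pyy-high at 10% mitochondrial UMIs and at 10 UMIs. The share for Insl5 was 97.7% at 10 UMIs and 94.7% at 50 UMIs. The whole epithelium Sst share outside endocrine by markers was 2.46% at 5000 or more UMIs, 1.96% at 10% mitochondrial UMIs, 2.14% with 1 UMI of each of 3 markers and 58.1% outside enteroendocrine-like clusters.

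In the enteroendocrine-like class directions depended on the clustering. With the hormone genes kept among the variable genes, 29 GFP and 50 whole epithelium barcodes left the class for a cluster led by Insl5, Gcg and Pyy, which the naming rule left unnamed. Then 0 genes were 2-fold lower in GFP and 5 higher, with log2 ratios of 2.87 for Pyy, 3.23 for Gcg, 1.38 for Insl5, 1.60 for Cck and 0.24 for Sct, which is within 2-fold, 8.08 (5.58 to 13.4) for Ppy, and no ratio for Sst and Nts, which had at most 3 UMIs in each library. With that cluster added, an alternative chosen after seeing the data, 3 were lower and 1 higher, and Pyy stood at 0.055. The share of all genes past 2-fold was not computed for either of these classes, so a shift of the whole class cannot be told apart. Pyy was at 0.17 with 5000 or more UMIs per barcode, and Tac1 at -0.34 at 10% mitochondrial UMIs. Spread between animals or between preparations is not in any interval here. Reading the matrices as recorded would turn every sign.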
